A study of Mus musculus with 2 samples.

Results

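The mouse microRNA genes Mir103-1, Mir103-2 and Mir107 lie in introns of the pantothenate kinase genes Pank3, Pank2 and Pank1. They were taken by gene name from the 1973 microRNA genes counted in forebrain, and all 3 were found in the tables. Small RNA libraries limited to fragments shorter than 30 nucleotides had been made from forebrain of B6NCrl mouse embryos at embryonic day 13.5, with males and females pooled and described as healthy. The series holds 1 group of 2 libraries, replicate 2 and replicate 1, which carry separate biosample identifiers and a single donor identifier. The labels do not say which embryos entered which pool, so the spread between the libraries may in part be technical. No condition was compared with another, and neither the host mRNAs nor the target mRNAs were measured here.

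MicroRNAs are cut from hairpin precursors by Drosha and Dicer, and the mature strand guides Argonaute proteins to mRNAs through its seed, the bases near its 5′ end. The host genes encode pantothenate kinases, which catalyse the first step of coenzyme A synthesis, and loss of PANK2 function in humans causes a neurodegenerative disorder with iron deposits in the brain. The mature forms miR-103 and miR-107 are known for regulating insulin sensitivity through caveolin-1 in mouse liver and adipose tissue, and for repressing Dicer. In zebrafish, miR-107 acts on Dicer during hindbrain neurogenesis.

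The mature sequences are shown because they decide which reads could be told apart between the genes. They were taken from the RefSeq table for GRCm38.p6, in which all 3 genes matched, and the capitals mark the seed, bases 2 to 8.
miR-103-3p of Mir103-1 and Mir103-2: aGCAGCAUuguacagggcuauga
miR-107-3p of Mir107: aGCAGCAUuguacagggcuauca
miR-103-1-5p: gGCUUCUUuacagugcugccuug
miR-103-2-5p: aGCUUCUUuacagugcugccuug
miR-107-5p: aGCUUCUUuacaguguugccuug

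Both 3p sequences carry the seed GCAGCAU, which no other mature mouse microRNA in the RefSeq table shares. The 5p sequences of all 3 genes share the seed GCUUCUU, and again no other listed microRNA has it. With positions counted from 1 at the 5′ end and the base of the microRNA named first given first, miR-103-3p and miR-107-3p differ by G22C alone. On the 5p arm, miR-103-1-5p and miR-103-2-5p differ by G1A, and miR-103-2-5p and miR-107-5p by C16U. The 3p sequences of Mir103-1 and Mir103-2 are identical.

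The hairpins are shown with both mature arms in capitals, since the loop and the stem ends, in lower case, hold most of the differences between the genes. They run 5′ to 3′ on the strand of the gene.
Mir103-1 hairpin: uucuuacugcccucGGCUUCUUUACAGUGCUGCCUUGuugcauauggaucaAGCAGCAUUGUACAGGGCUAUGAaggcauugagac
Mir103-2 hairpin: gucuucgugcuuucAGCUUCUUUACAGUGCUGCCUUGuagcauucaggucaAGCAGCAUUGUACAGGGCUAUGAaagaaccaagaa
Mir107 hairpin: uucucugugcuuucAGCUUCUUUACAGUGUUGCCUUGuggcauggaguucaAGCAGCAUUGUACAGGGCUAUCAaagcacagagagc

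In the principal transcripts, to which the positions below refer, all 3 genes occupy the same place in their hosts. In GENCODE M21, Mir103-1 (ENSMUSG00000065553.1) lies at chr11:35782396-35782481 on the plus strand, in intron 5 of the 6 introns of the principal Pank3 transcript. Mir103-2 (ENSMUSG00000065563.1) lies at chr2:131288052-131288137 on the plus strand, in intron 5 of 6 of Pank2. Mir107 (ENSMUSG00000065594.1) lies at chr19:34820687-34820773 on the minus strand, in intron 5 of 6 of Pank1. Each gene has the orientation of its host, and no further annotated gene overlaps it. The distance from the upstream splice site to the hairpin was 688 bases in Pank3, 454 in Pank2 and 326 in Pank1. The introns themselves differed more, at 1740 bases in Pank3, 5801 in Pank2 and 7282 in Pank1. In another protein-coding transcript of Pank2, Mir103-2 lay in intron 2 of 3, which has 19135 bases. In another of Pank1, Mir107 lay in intron 4 of 5.

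The hairpins of Mir103-1 and Mir103-2 were 80.2% identical in a global alignment, with a longest shared stretch of 27 bases. Mir103-1 and Mir107 were 80.5% identical and Mir103-2 and Mir107 83.9%, both with a longest shared stretch of 24 bases. So although Mir103-1 and Mir103-2 give the same 3p microRNA, the Mir103-2 hairpin as a whole was closer to Mir107. GC content was 47.7% in Mir103-1, 45.3% in Mir103-2 and 47.1% in Mir107.

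Among reads counted on the strand of the gene, Mir107 was far above the other genes. Counts numbered 9194 in replicate 2 and 9913 in replicate 1, or 2352 and 2407 CPM, where CPM is a count scaled to 1000000 counts on genes. Its mean was 2380 ± 39.1 CPM (SD, n = 2), and it ranked 64 among 1973 genes in each library. Of these genes, 1253 had 0 counts in both libraries and 377 had at least 10 counts in each. Mir103-2 had 253 counts in replicate 2 and 300 in replicate 1, which are 64.7 and 72.9 CPM. The mean of Mir103-2 was 68.8 ± 5.75 CPM (SD, n = 2), at rank 228 by mean CPM. The levels of Mir107 and Mir103-2 did not overlap between the libraries.

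Mir103-1 had 6 counts in replicate 2 and 30 in replicate 1, or 1.53 and 7.29 CPM. Its mean of 4.41 ± 4.07 CPM (SD, n = 2) has an error nearly as large as the value, and with 6 counts in replicate 2 it missed the minimum of 10 counts in each library set here for a detected gene. The 95% Wilson interval was 0.703 to 3.35 CPM in replicate 2 and 5.10 to 10.4 CPM in replicate 1, which do not overlap. The order Mir107, Mir103-2, Mir103-1 was the same in both libraries. Intervals cover counting error only and hold no spread between libraries. Reads copied by PCR are not independent molecules, so the intervals may also be too narrow. On the opposite strand the 3 genes had 0 counts in either library, which allows up to 0.767 CPM in replicate 2 and 0.729 CPM in replicate 1.

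**Figure D1:**
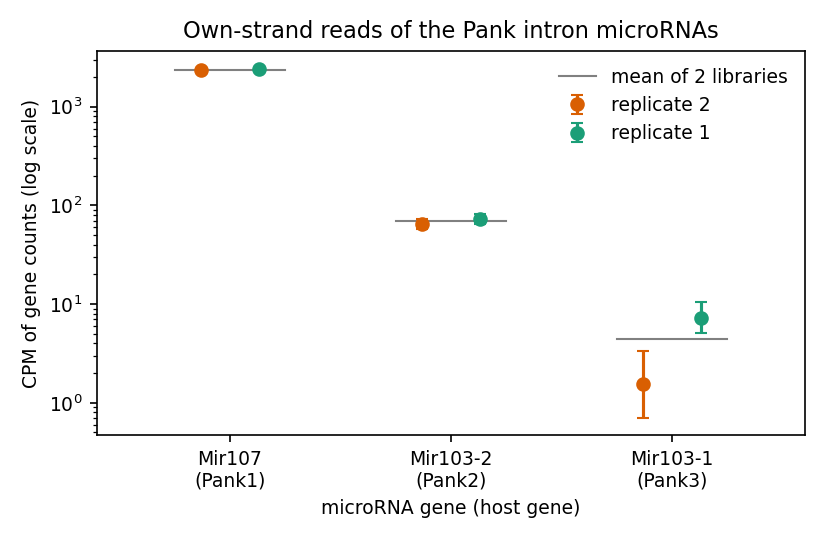
CPM of gene counts (log axis) of Mir107, Mir103-2 and Mir103-1 in replicate 2 and replicate 1, with 95% Wilson intervals and a grey line at the mean of the 2 libraries. Mir107 lay at 2352 and 2407 CPM and Mir103-1 at 1.53 and 7.29 CPM, the member with the widest gap between libraries.

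Together the 3 genes took up 0.242% of all counts on genes in replicate 2, with a 95% Wilson interval from 0.237 to 0.247. In replicate 1 they took up 0.249%, with an interval from 0.244 to 0.254. The mean was 0.245% ± 0.00490 (SD, n = 2). Within this sum Mir107 had 97.3% of the counts in replicate 2 (exact Clopper-Pearson interval 96.9 to 97.6) and 96.8% in replicate 1 (96.4 to 97.1). Per count of Mir103-1 and Mir103-2 together there were 35.5 counts of Mir107 in replicate 2 and 30.04 in replicate 1. The higher share of Mir107 in replicate 2 was close to the threshold (two-sided Fisher exact test, p = 0.0491, adjusted p = 0.0491 over 2 ratios). Per count of Mir103-1 there were 42.2 counts of Mir103-2 in replicate 2, with an interval from 19.1 to 116, and 10 in replicate 1, with an interval from 6.86 to 15.1 (Fisher exact p = 0.000468, adjusted p = 0.000936). In neither library was Mir103-1 close to Mir103-2.

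What a count means differs between the genes, because the tables hold reads that fit several places in a summary row of their own. That row took 43.9% of the reads of replicate 2 and 40.6% of those of replicate 1. A read is taken here to count on a gene only when it fitted that gene better than any other place. The sources used here state neither this rule nor the number of mismatches allowed. Exact matching to the 1005 hairpins of the RefSeq table shows which reads fit more than 1 annotated hairpin. The rest of the genome was not searched, so a read that matches a single hairpin may still fit elsewhere.

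A read that starts at the annotated 5′ end of the 3p arm and has 18 to 21 bases matched all 3 hairpins. At 22 bases it reaches the position of G22C, and from there a miR-107-3p read matched Mir107 alone. A miR-103-3p read of 22 to 24 bases, the annotated length of 23 included, matched both Mir103-1 and Mir103-2. At least 25 bases, 2 past the annotated end, were needed before it matched a single gene. The counts of Mir103-1 and Mir103-2 therefore leave out full-length miR-103-3p wherever it was treated as multi-mapped. Full-length miR-107-3p can count on Mir107 where it fits no other place. Reads from the annotated start of the 5p arm matched a single gene exactly at every length from 18 to 29 bases. If 1 mismatch is allowed, the annotated 23 bases of miR-103-3p or miR-107-3p fitted all 3 hairpins. So did those of miR-103-2-5p, while miR-103-1-5p and miR-107-5p then fitted 2 hairpins each.

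Over whole hairpins, 61 of the 66 windows of 22 bases in Mir107 occurred in no other annotated hairpin. The same held for 55 of 65 windows in Mir103-2 and 57 of 65 in Mir103-1. Each hairpin had 3 windows found in all 3 genes, which begin just before the 3p arm. Mir103-1 and Mir103-2 thus had about as many windows of their own as Mir107, and most of the shared ones lay at the 3p arm. Which arm or length the counted reads came from is not recorded in the tables. Whether the low counts of Mir103-1 and Mir103-2 come from fewer precursors or from reads set aside was not tested.

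**Figure D2:**
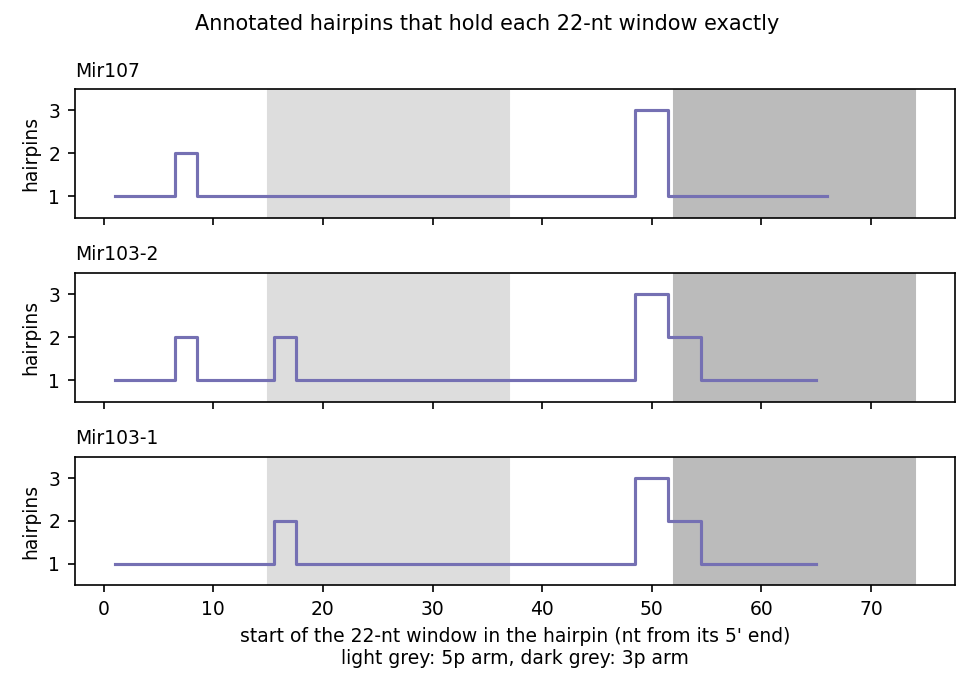
Number of annotated hairpins (vertical axis) that hold each window of 22 bases exactly, by the start of the window in the hairpin (horizontal axis, in nucleotides), for Mir107, Mir103-2 and Mir103-1. Windows at the start of the 3p arm (dark grey) occurred in 2 hairpins for Mir103-1 and Mir103-2 and in 1 for Mir107, and the 3 windows just before it occurred in all 3 hairpins.

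Other gene pairs that share a mature sequence put the imbalance of Mir103-2 over Mir103-1 in context. A mature sequence found in exactly 2 genes of the tables, of which the higher had at least 50 counts in each library, gave 19 pairs, a selection made after values had been seen. Over both libraries the counts of the higher gene exceeded those of the lower by a median of 3.17 times, in a range from 1.19 to 91.2. Mir103-2 over Mir103-1 stood at 15.4, but its place depended on the library. At 42.2 in replicate 2 it had 2 pairs above it, Mir181b-2 over Mir181b-1 and Mir194-2 over Mir194-1. At 10 in replicate 1 it had 5, these and the pairs led by Mir92-1, Mir181a-1 and Mir219a-1. The Mir103 ratio moved most of these 19 between the libraries, by 4.22 times, and the next, Mir194, by 1.64 times. In both pairs the lower gene had few counts.

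**Figure D3:**
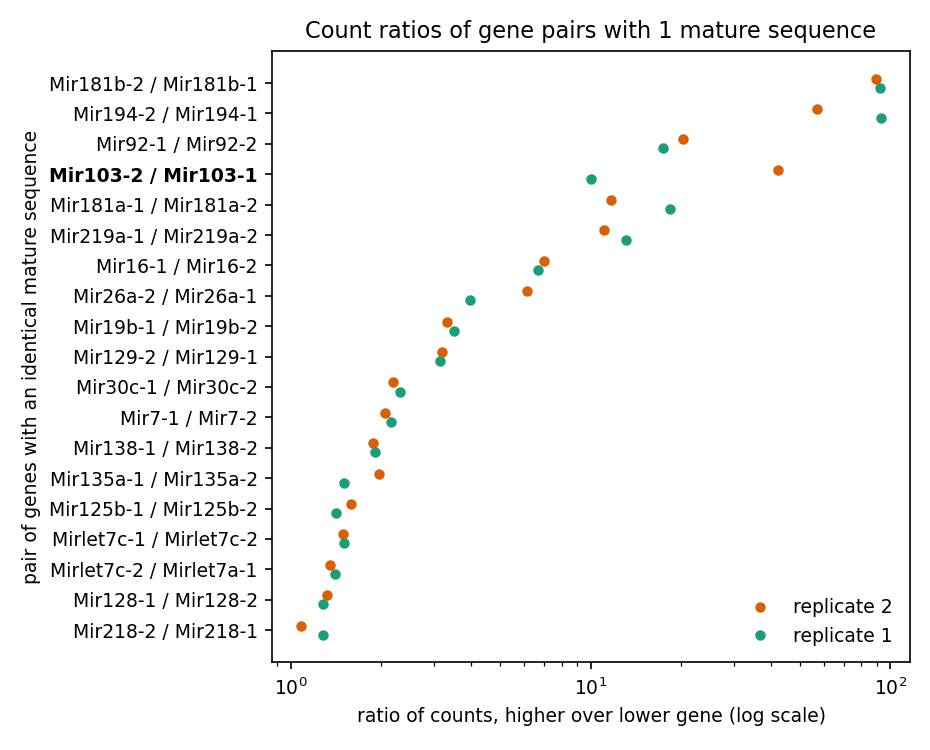
Ratio of counts (log axis) of the higher over the lower gene in 19 pairs with an identical mature sequence, for replicate 2 and replicate 1. The Mir103 pair, in bold, lay at 42.2 and 10, while the pair at the bottom, Mir218-2 over Mir218-1, lay at 1.08 and 1.28.

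MicroRNAs in introns of other paralogous hosts were counted in different proportions. The Mir26 genes, in introns of the Ctdsp phosphatase family, also have 2 genes for a shared mature form and a single-copy relative. Mir26b had 72114 counts in replicate 2 and 67816 in replicate 1. Mir26a-1 had 27 and 32 counts in the same libraries, and Mir26a-2 had 165 and 127. Mir26b thus exceeded the other Mir26 genes together by 376 times in replicate 2 and 427 times in replicate 1, a wider gap than between Mir107 and the Mir103 genes (35.5 and 30.04). The 2 ranges did not overlap, but 2 libraries are too few for a permutation test, so no p is given. Reads of the mature form shared by Mir26a-1 and Mir26a-2 can be set aside as multi-mapped. Their part in this gap was not tested. Mir128-1 and Mir128-2, brain microRNAs in introns of R3hdm1 and Arpp21, stood close to each other at ratios of 1.32 and 1.28. So did Mir218-2 and Mir218-1, at 1.08 in replicate 2 and 1.28 in replicate 1.

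The 3p forms of the Pank intron genes belong to a wider set, the miR-15 and miR-107 group, known for the bases AGCAGC at or next to the 5′ end. The genes were listed by name. Of the 13 mature sequences with AGCAGC there in the RefSeq table, miR-6342, miR-6353 and miR-6419 are not on the list, and Mir497b is on it without holding the motif. Several of its members act on cyclins and other cell cycle genes. In the sequences below AGCAGC is in capitals, and they are shown because it begins at base 1 in miR-103-3p and miR-107-3p but at base 2 in the others, which gives the Pank genes their own seed.
miR-103-3p: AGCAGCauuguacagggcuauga
miR-107-3p: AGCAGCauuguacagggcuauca
miR-15a-5p: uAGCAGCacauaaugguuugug
miR-15b-5p: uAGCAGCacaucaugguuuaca
miR-16-5p: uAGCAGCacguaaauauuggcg
miR-195a-5p: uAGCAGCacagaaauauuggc
miR-322-5p: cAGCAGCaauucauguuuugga
miR-503-5p: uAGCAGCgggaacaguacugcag

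Of the 12 measured genes of the group, 9 were detected, and together they held 3.29% of the gene counts in replicate 2 and 3.01% in replicate 1. Mir107, Mir103-2 and Mir103-1 made up 7.34% of that sum in replicate 2 and 8.27% in replicate 1. This share and the order below rest on counts that reads can enter to unlike degrees. Like the Mir103 genes, Mir16-1 and Mir16-2 share a mature sequence, whose reads can be set aside as multi-mapped. Mir322, Mir15a, Mir15b, Mir195a and Mir503 share no 20 bases with another annotated microRNA gene. The effect on the order was not tested. CPM was not divided by length, since these mature forms have 21 to 23 bases. By CPM, Mir107 came behind Mir322 (15552 CPM in replicate 2 and 14116 in replicate 1), Mir15a (7291 and 6308) and Mir16-1 (4614 and 4095). It stood above Mir15b (1818 and 1906 CPM), Mir16-2 (660 and 615), Mir195a (349 and 328) and Mir503 (243 and 237). Mir103-2 and Mir103-1 came below all of these. No neighbours in this order overlapped between the libraries, and the closest to Mir107 was Mir15b, with 1.28 ± 0.0218 times as many counts for Mir107 (SD, n = 2). At the bottom, Mir103-1 and Mir497b differed by 3.78 CPM, less than the SD of Mir103-1. Mir497b had 3 and 2 counts on its own strand and 1558 and 1574 on the opposite strand, and Mir195b had 0 in both libraries. Mir497, whose mature form holds AGCAGC, was listed, but no measured gene was found under that name. The group's share and order therefore leave it out.

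**Figure D4:**
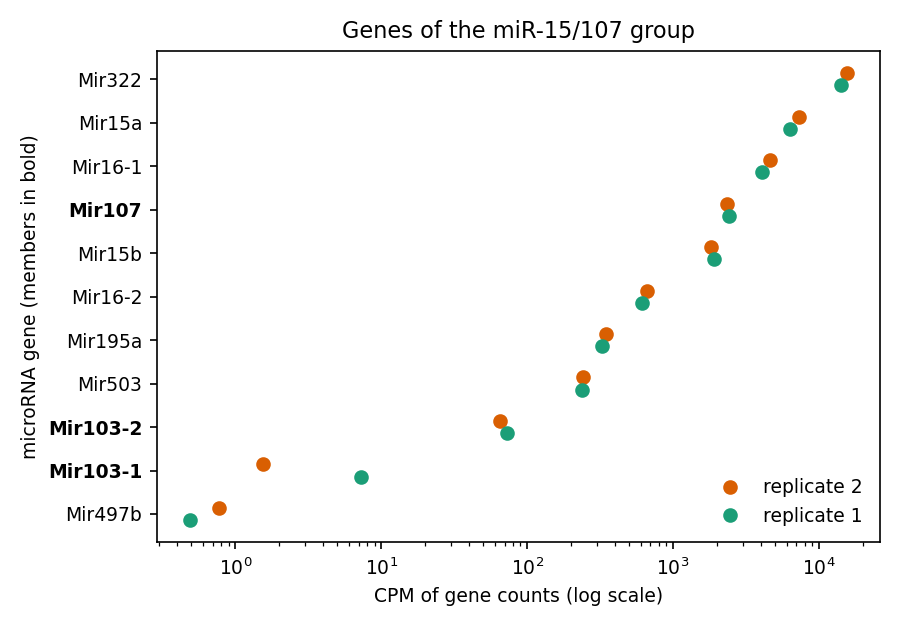
CPM of gene counts (log axis) of the genes of the miR-15 and miR-107 group with a count, in replicate 2 and replicate 1, ordered by mean. Mir107 lay between Mir16-1 and Mir15b at 2352 and 2407 CPM, and Mir103-2 and Mir103-1 stood below Mir503 at 243 and 237 CPM.

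Each gene was compared between the libraries by an exact binomial test (two-sided, TMM library sizes), with adjustment over the 475 genes that had at least 10 counts in all. The test compares these libraries and not conditions. A call needed both an adjusted p under 0.05 and a log2 ratio beyond 1 or -1. Mir103-1 was called lower in replicate 2, with a log2 ratio of -2.05 (exact 95% interval -3.69 to -0.85, exact binomial adjusted p = 0.00120). It was 1 of 3 members, against 2.95% of all tested genes called lower. Of all 16 called genes, 14 averaged under 10 CPM, as Mir103-1 did. With the dispersion estimated from these libraries, edgeR's exact test gave it an adjusted p of 0.291 and called 0.211% of the genes. Under the other alternatives the exact binomial adjusted p was 0.000295 to 0.00182.

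Mir103-2 did not pass, at a log2 ratio of -0.062 (exact 95% interval -0.31 to 0.18, exact binomial adjusted p = 0.785). Mir107 had a log2 ratio of 0.075 (0.034 to 0.12), and although its many counts gave an exact binomial adjusted p of 0.00127, the ratio is far inside the limit of 1. With library totals in place of TMM its sign turned, to -0.034 with an adjusted p of 0.217, and over all alternatives its adjusted p ran from 0.000790 to 1. An adjusted p under 0.05 alone was reached by 38.9% of all tested genes. In the miR-15 and miR-107 group 6 of the 10 tested genes were higher in replicate 2 at that adjusted p, Mir107 among them, against 18.1% of all tested genes. A single gene of the group was lower, Mir103-1, against 20.8% of all. The log2 ratios of the 6 higher genes were small, from 0.075 to 0.32. The exact binomial test covers counting error only, so such ratios can pass at high counts. With edgeR's exact test no gene of the group had an adjusted p under 0.05. The group's median log2 ratio was 0.17, beside 0.02 over all tested genes.

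**Figure D5:**
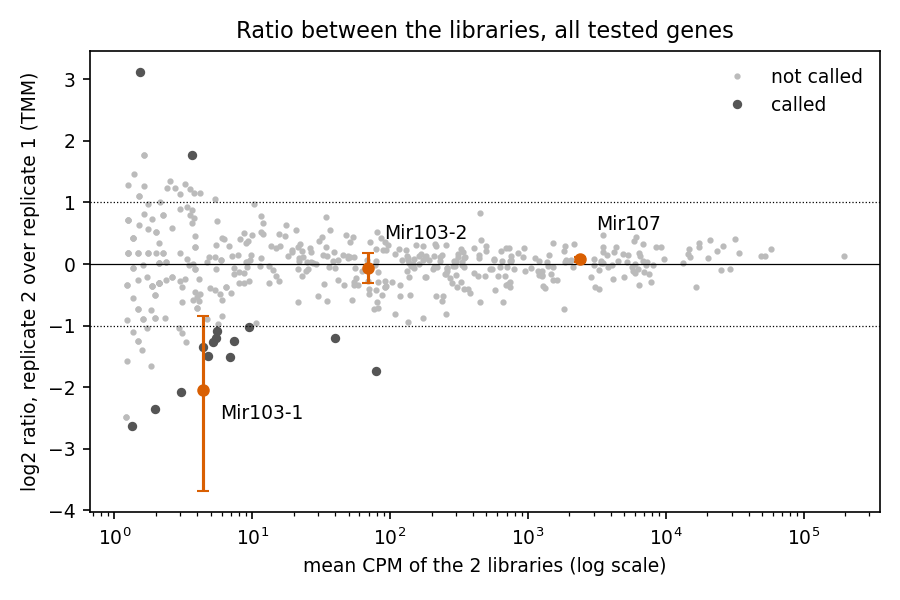
Log2 ratio of replicate 2 over replicate 1 after TMM scaling against mean CPM (log axis) for the 475 tested genes, with the Pank intron genes in orange and their exact 95% intervals, and dotted lines at the limits of 1 and -1. Mir103-1 lay at -2.05 among the called genes, while Mir103-2 at -0.062 and Mir107 at 0.075 lay near 0.

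Genes most like each member were taken as the 3 detected genes nearest in log2(CPM + 1) over the 2 libraries. Nearest to Mir107 were Mir379, at a distance of 0.26, Mir125b-1 at 0.27 and Mir22 at 0.30. Nearest to Mir103-2 were Mir34a at 0.03, with 254 counts in replicate 2 and 306 in replicate 1, Mir3072 at 0.10 and Gm23935 at 0.15. For Mir103-1 the nearest detected gene, Mir3060, was 0.59 away, at 11 counts in replicate 2 and 31 in replicate 1. Mir103-1 itself missed the minimum for a detected gene. Genes that also missed it could not be chosen, such as Mir1912 with 9 counts in replicate 2 and 30 in replicate 1. With 2 libraries the distance measures a like level and says nothing more.

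The tissue label was checked against marker genes. Of 10 measured microRNAs of neural progenitors and neurons 8 were detected. The list summed to 23525 CPM in replicate 2 and 27236 CPM in replicate 1. Most of the sum came from Mir92b and Mir137, with means of 13430 and 7852 CPM. Mir153, Mir128-1, Mir9-3 and Mir128-2 of the list had means of 2027, 746, 738 and 575 CPM. Some others were low. Mir9-2 had 18 counts in replicate 2 and 20 in replicate 1, Mir124a-2 had 19 and 20, and Mir124a-1 had 6 and 8. Where Mir9 or Mir124 genes share a mature sequence, its reads can be set aside as multi-mapped. The effect on these counts was not tested. Endothelial Mir126a stood at 18828 and 16042 CPM. The erythroid markers moved apart, with 134 counts of Mir451a in replicate 2 and 507 in replicate 1, and 164 and 109 counts of Mir144, and they summed to 76.2 and 150 CPM. Their part in the counts of Mir103-1 was not tested. Liver Mir122 had 52.7 and 59.3 CPM, hindbrain and trunk markers summed to 286 and 436 CPM, and muscle markers to 3.33 and 10.4 CPM, with 4 of 5 at 0. The libraries held 3908953 gene counts in replicate 2 and 4117752 in replicate 1, so that 1 count equals 0.256 and 0.243 CPM.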

How the data were processed

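The deposited tables, 1 per library, hold whole-number read counts per microRNA gene of mm10 with annotation M4, per the read-me texts deposited with them by the authors. The aligner and counting tool are not given in the sources used. Own-strand counts were used, and 4 summary rows, holding 62.6% of the reads of replicate 2 and 61.3% of replicate 1, were left out of totals and tests. Of the 1973 identifiers 1894 matched the later GENCODE release M21 of this build, from which names, positions and introns came. CPM, TMM factors (edgeR 4.0.16, R 4.3.3) and ratios with a prior count of 0.5 were computed here, and exact tests with scipy 1.17.1. On simulated data for replicate 2 over replicate 1 (455 genes tested), 93.5% of genes changed 4-fold were called. So were 5 of 269 unchanged genes. The simulated counts held counting error only and library totals were used, so further spread between libraries was not covered. Named genes were the members, their lists, the 3 nearest genes to each member, and pairs sharing a mature sequence. Genes sharing 20 bases with another locus were said to have a copy. Members and lists were chosen with earlier results of these data known. Alternatives were other scalings, filters, strands, denominators and tests, and leaving out each library.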

Additional observations from a re-analysis of the deposited data

Results flagged for a closer look

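Reads that fit more than 1 place, which the tables hold outside the gene counts, made up 42.3% of all reads on average over the 2 libraries (43.9% in replicate 2 and 40.6% in replicate 1), a signal in data that the comparisons do not use. How many of them are miR-103-3p is not recorded in the tables. With 2 libraries no test of single outlying samples was made.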

How the results depend on the processing

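The lower count of Mir103-1 in replicate 2 kept its direction under every scaling, filter and strand tried, and was called under all but edgeR's exact test (log2 ratio -2.12, adjusted p = 0.291), whose dispersion comes from the difference between these same libraries. With at least 50 counts in each library it was not tested. Library totals moved every log2 ratio by -0.11 and turned the sign for Mir107, to -0.034. The family's share of reads was 0.0934% of all reads, 0.116% with multi-mapped reads added to the gene counts, and 0.240% of the counts on either strand. Leaving out each library in turn, this share ranged from 0.242% to 0.249%, the ratio of Mir107 to the Mir103 genes from 30.04 to 35.5, and that of Mir103-2 to Mir103-1 from 10 to 42.2, the widest of these, with its low count in replicate 2. Without replicate 1 the level of Mir103-1 was 1.53 CPM, and without replicate 2 it was 7.29 CPM. No paired analysis was possible because there is 1 group. Depth limits Mir103-1 above all, with 6 and 30 counts.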

Other observations

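Since miR-103 and miR-107 are known from insulin and lipid metabolism, other microRNAs with such roles were looked up. Of 8 measured genes 5 were detected, and together they held 0.454% of the gene counts in replicate 2 and 0.361% in replicate 1. Most of it was Mir143, with 3970 CPM in replicate 2 and 3081 CPM in replicate 1. Mir33, which lies in an intron of the sterol regulator Srebf2, had 526 counts in replicate 2 and 513 in replicate 1, or 130 ± 7.06 CPM (SD, n = 2), between Mir107 and Mir103-2. Mir29a had 890 and 803 counts, and Mir802, known from liver and pancreas, had 2 and 1.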
